A study of Homo sapiens with 6 samples.

Results

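Oxidative phosphorylation (OXPHOS) is carried out by 5 protein complexes of the inner mitochondrial membrane, and their subunits are encoded by both the nuclear and the mitochondrial genome. The 121 OXPHOS genes described here were chosen by name from 33539 rows of the deposited gene table. They comprise 84 nuclear protein-coding genes and the 37 genes of mitochondrial DNA: 13 mRNAs, 2 rRNAs and 22 tRNAs. The nuclear genes were named NDUFA, NDUFB, NDUFC, NDUFS or NDUFV (36 genes of complex I), SDHA to SDHD (4 of complex II), UQCR (9 of complex III), COX4 to COX8 (15 of complex IV, with NDUFA4 placed there) and ATP5 (20 of complex V). The mitochondrial mRNAs encode 7 subunits of complex I, 1 of complex III, 3 of complex IV and 2 of complex V.

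Poly(A) RNA was sequenced from 8505C cells, an established human line of anaplastic thyroid cancer, 24 h after transfer of a negative control siRNA (NC, 3 libraries) or of an siRNA against POLR1F (siPOLR1F, 3 libraries). POLR1F belongs to RNA polymerase I, which in the nucleolus makes the precursor of the cytoplasmic rRNAs. All libraries come from this single cell line, carry no other stated alteration and share 1 batch label. The question set by the series is which genes respond to loss of POLR1F. POLR1F itself measured 8.80, 8.42 and 7.64 FPKM (fragments per kilobase of gene, scaled to library size) in NC and 2.09, 1.42 and 1.51 FPKM in siPOLR1F, with no overlap between the groups and a log2 change of -2.30 (SE 0.15 by edgeR; adjusted p = 9.76e-05).

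In the electron transport chain, complexes I and II feed electrons from NADH and succinate to ubiquinone, complex III passes them to cytochrome c and complex IV to oxygen. Complexes I, III and IV pump protons, and complex V, the ATP synthase, uses the gradient to make ATP. Complex II is encoded by nuclear genes alone, whereas each other complex needs mRNAs of both genomes. The mitochondrial genes are transcribed by a separate polymerase, POLRMT, as long precursors from both strands of the circular DNA, and tRNAs between the mRNAs mark many of the places where the precursors are cut. Most of the mRNAs then receive poly(A) tails. Mitochondrial rRNAs carry only short tails and mature tRNAs none, so a poly(A) library samples these classes less completely than the tailed mRNAs.

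Depth ranged from 60576788 to 63038378 counts per library, and 13564 genes with a mean of at least 0.5 FPKM over the 6 libraries were tested. Of these, 1391 were higher and 942 lower in siPOLR1F at an edgeR adjusted p below 0.05. Whether replicate libraries were grown as separate cultures is not stated, so p-values measure only the spread among the sequenced libraries, which may be technical. In bulk RNA, fewer cells and less RNA per cell cannot be told apart. Of the thyroid markers, NKX2-1 was present at 45.2 FPKM in NC and 27.5 FPKM in siPOLR1F, whereas TG was at 0.0026 FPKM and TSHR and SLC5A5 at 0 in NC. The keratins KRT8 and KRT18 had 117 and 162 FPKM in NC and VIM 671 FPKM, and the leukocyte marker PTPRC was at 0.0033 FPKM.

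Some mitochondrial mRNAs overlap on the same strand, which matters for reading their values, since a fragment in the shared bases belongs to both genes. MT-ATP8 and MT-ATP6, like MT-ND4L and MT-ND4, lie on a shared mRNA. These 4 genes include both mitochondrial mRNAs that passed the test, so the 2 junctions are shown, with the gene end of MT-ND4. They are printed 5′ to 3′ from the plus strand of GRCh38 as distributed with GENCODE 29. Capitals mark the bases that both genes of a pair share and, in the last line, the final base of MT-ND4.
MT-ATP8/MT-ATP6 junction, chrM:8507-8592: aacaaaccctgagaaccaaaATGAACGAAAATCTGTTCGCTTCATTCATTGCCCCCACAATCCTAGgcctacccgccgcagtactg
MT-ND4L/MT-ND4 junction, chrM:10740-10786: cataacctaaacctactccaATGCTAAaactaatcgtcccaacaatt
MT-ND4 end, chrM:12108-12137: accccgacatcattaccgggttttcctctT
The first pair shares 46 bases and the second 7 bases, each run opening with the ATG of the downstream gene. MT-ND4 ends in a lone T of its stop codon, and the tail supplies the rest. Of the 13 mRNA genes, 6 had no complete stop in the annotated gene, namely MT-ND1, MT-ND2, MT-ND3, MT-ND4, MT-CO3 and MT-CYB.

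By FPKM, mitochondrial mRNAs were far more abundant than nuclear ones. FPKM divides counts by gene length, so levels of different genes, and the ratios below, also depend on the lengths used. In NC replicate 1, NDUFB9 had 7713 counts at 6.60 FPKM, and COX8A 7003 counts at 201 FPKM. How far the lengths shape the ratios was not tested. Over all 6 libraries the median of the 13 mitochondrial mRNAs was 4195 FPKM (range 504 to 6492), against 22.9 FPKM (range 1.14 to 251) for the 79 nuclear genes tested. In each complex with both kinds of subunit, every mitochondrial mRNA was above every nuclear one. The mean mitochondrial level per gene exceeded the nuclear one in NC by 116 ± 8.10 times (SD, n = 3) in complex I, 82.2 ± 3.55 times in complex III, 143 ± 6.5 times in complex IV and 156 ± 4.87 times in complex V. In siPOLR1F these ratios were 110 ± 13.4, 78.1 ± 7.0, 140 ± 9.57 and 144 ± 11.6 (SD, n = 3), and for each complex the 2 groups overlapped.

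**Figure D1:**
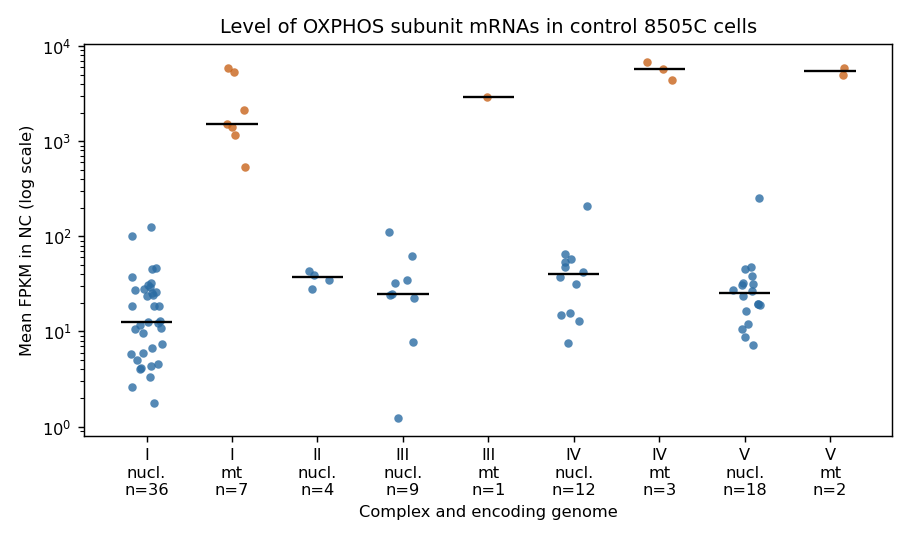
Mean FPKM in the 3 NC libraries on a log axis for each tested OXPHOS mRNA, by complex and encoding genome (nucl., nuclear; mt, mitochondrial); each point is a gene and each line the median of its column. The 13 mitochondrial mRNAs all sit above the nuclear genes of the same complex, and the nuclear genes span from 1.23 to 252 FPKM.

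Within the mitochondrial genome, the NC levels of the 13 mRNAs differed by 12.8 times from the highest to the lowest. MT-CO1, a catalytic subunit of complex IV, was the most abundant at 6826 ± 470 FPKM (SD, n = 3). It was followed by MT-ATP8 at 5941, MT-ND4 at 5860, MT-CO2 at 5735, MT-ND4L at 5337, MT-ATP6 at 5011 and MT-CO3 at 4402 FPKM. MT-CYB, MT-ND2, MT-ND5, MT-ND1, MT-ND6 and MT-ND3 followed at 2918, 2110, 1510, 1397, 1156 and 532 FPKM. Neighbours in this order had overlapping NC ranges in 5 cases and separate ranges in 7. The overlapping neighbours were MT-ATP8 with MT-ND4, MT-ND4 with MT-CO2, MT-ND4L with MT-ATP6, MT-ND5 with MT-ND1 and MT-ND1 with MT-ND6. MT-ND6, the only mRNA encoded on the minus strand, was thus near the bottom of the order with MT-ND3. This order is that of a poly(A) library and need not be that of the RNAs in the cell. With no stated strand setting, the value of MT-ND6 may also include reads of the opposite strand.

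Together, the mitochondrial mRNAs took a smaller share of the counts in siPOLR1F. Their share was 4.87%, 4.67% and 4.74% in NC and 4.55%, 4.14% and 4.08% in siPOLR1F, and the groups did not overlap. The mean share fell by 10.6%, from 4.76% ± 0.10 to 4.25% ± 0.256 (SD, n = 3). siPOLR1F replicate 1 lay nearer to the NC libraries than to the other siPOLR1F libraries.

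The nuclear OXPHOS genes also took a smaller share. It was 0.661%, 0.676% and 0.686% in NC and 0.622%, 0.652% and 0.644% in siPOLR1F, again with no overlap. The mean share fell by 5.15%, although the summed FPKM of the same genes (2522 ± 67.5 FPKM in NC, 2387 ± 84.4 FPKM in siPOLR1F; SD, n = 3 each) overlapped between the groups. The ratio of mitochondrial mRNA counts to nuclear OXPHOS counts was 7.36, 6.91 and 6.91 in NC, against 7.32, 6.34 and 6.33 in siPOLR1F. The groups overlapped, and replicate 1 had the highest ratio in each of them. A different change of the 2 genomes was therefore not separated from the spread between libraries.

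The mitochondrial rRNAs did not share this direction. Their share of the counts was 0.246%, 0.229% and 0.215% in NC and 0.268%, 0.239% and 0.214% in siPOLR1F, and the groups overlapped.

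**Figure D2:**
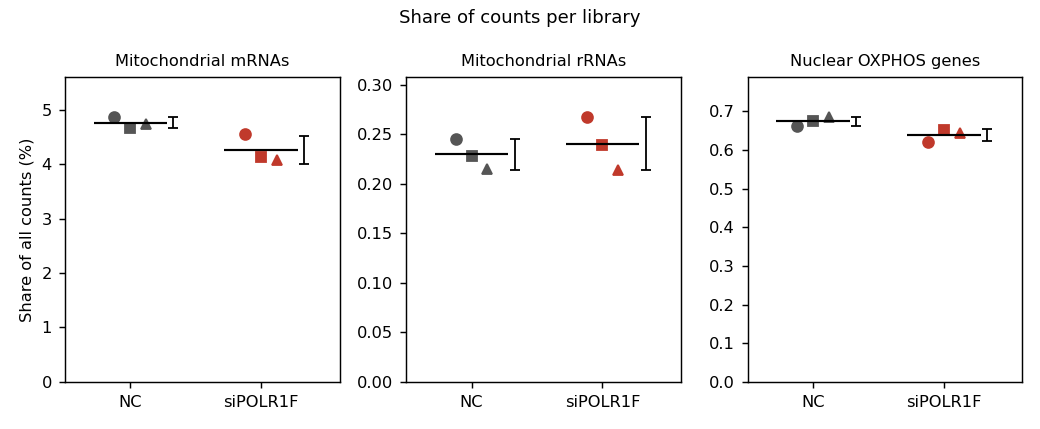
Share of all counts (%) in each library for the 13 mitochondrial mRNAs, the 2 mitochondrial rRNAs and the nuclear OXPHOS genes; circles, squares and triangles are replicates 1, 2 and 3, lines are group means and bars are the SD. The groups are apart for both sets of mRNA (4.76% to 4.25% and 0.674% to 0.639%) and overlap for the rRNAs.

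Of the 79 nuclear genes tested, 2 were higher and 8 lower by edgeR, which is 2.53% higher and 10.1% lower. Over all genes tested, 17.2% were called, 10.3% higher and 6.94% lower. The median log2 fold change of the nuclear genes was -0.10, against -0.01 over all genes tested. Values below 0 were seen for 62 of 79 genes (78.5%), against 52.5% of all genes tested. By FPKM, the groups did not overlap for 31 nuclear genes that were lower and 4 that were higher, where 19.0% and 18.9% of all genes tested were lower and higher in this way. The count of lower nuclear genes moved with the processing: it was 14 among genes with at least 5 FPKM, 5 with the mitochondrial rows left out of the scaling, 1 without a filter on low values, and 1 to 5 when a library was left out.

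Of the 13 mitochondrial mRNAs, none was higher and 2 were lower (15.4%, against 6.94% of all genes tested). Their median log2 fold change was -0.14. All 13 log2 fold changes were below 0, but they lay between -0.19 and -0.05. The FPKM groups did not overlap for 6 of the 13 genes, all lower. Of all genes tested, 19.0% were lower in this way. Under other settings the lower genes were counted over all 37 mitochondrial genes, rRNAs and tRNAs included. The count of 2 was 0 without NC replicate 1, siPOLR1F replicate 2 or siPOLR1F replicate 3, and 6 without siPOLR1F replicate 1. It was 4 by DESeq2 or by library size alone, 1 with the mitochondrial rows left out of the scaling, and 0 without the filter. Among genes with at least 5 FPKM it was 5, including the tRNA MT-TS1.

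**Figure D3:**
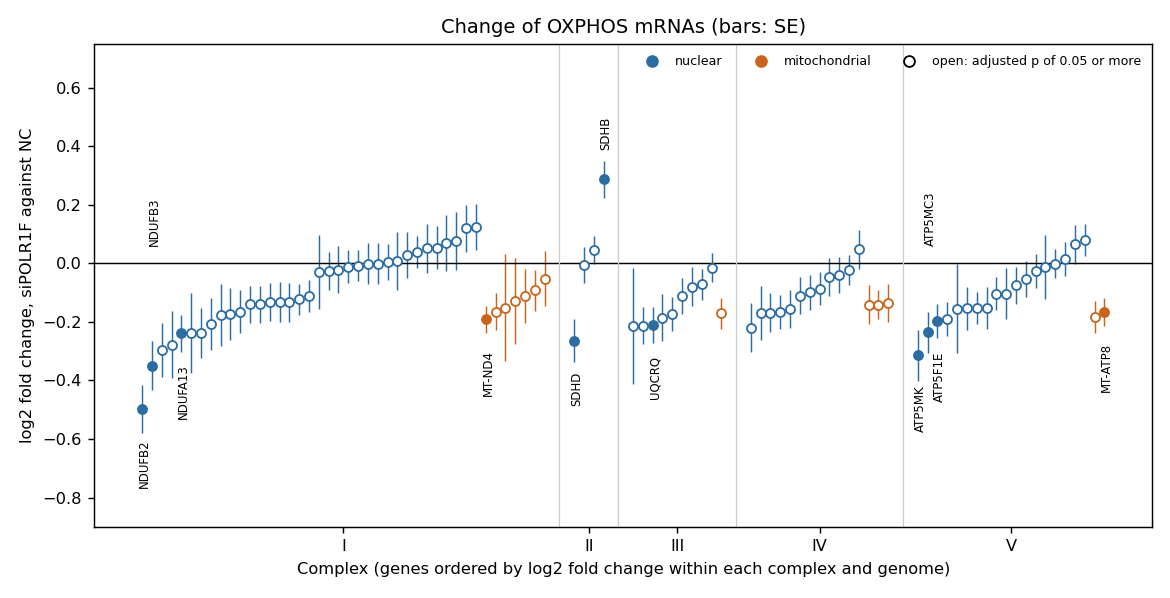
Log2 fold change of siPOLR1F against NC for tested OXPHOS mRNAs, by complex, without 1 gene that is not reported here, with nuclear genes in blue and mitochondrial genes in orange; bars are the SE from edgeR, and filled points passed the test, with their names in the same column. Points lie mostly just under 0, from -0.50 for NDUFB2 to 0.29 for SDHB, and 11 are filled.

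Complex I, the NADH dehydrogenase, has a catalytic core that binds NADH and the iron-sulfur clusters and a large set of accessory subunits. Of its 36 nuclear genes, 3 were lower, with a median log2 fold change of -0.07 and 25 values below 0. The 3 lower genes were accessory, a role assigned after the values had been seen. Of the 36 genes, 29 are accessory. Among these 10.3% were lower, against 6.94% of all genes tested, so no difference between core and accessory genes is read from this.

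NDUFB2 (ENSG00000090266, chromosome 7, 140690777 to 140722790), a small accessory subunit of the membrane arm, measured 4.96, 5.13 and 4.81 FPKM in NC and 3.55, 3.72 and 3.24 FPKM in siPOLR1F. The groups were well apart, and this was the nuclear member with the largest change. The log2 change was -0.50 (SE 0.08 by edgeR; adjusted p = 0.00537), and the call held under each alternative that tested the gene (adjusted p up to 0.0286). The gene overlaps ADCK2 on the same strand (6.44 FPKM) and BRAF on the other (0.984 FPKM), and with no stated strand setting their reads cannot be told apart where they overlap.

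NDUFB3 (ENSG00000119013, chromosome 2, 201071433 to 201085750), another membrane-arm subunit, measured 12.5, 12.7 and 11.9 FPKM in NC and 8.91, 10.6 and 9.48 FPKM in siPOLR1F. The groups did not overlap, and the log2 change was -0.35 (SE 0.08 by edgeR; adjusted p = 0.0240). The call was lost without any single NC library and without siPOLR1F replicate 1 or 3 (edgeR adjusted p from 0.0512 to 0.0881, within 0.00484 to 0.0881 over all alternatives). NDUFA13 (ENSG00000186010, chromosome 19, 19515736 to 19528198), an accessory subunit also described as a regulator of cell death, measured 26.2, 26.5 and 24.8 FPKM in NC and 22.2, 20.7 and 22.4 FPKM in siPOLR1F. It was lower in each siPOLR1F library, with a log2 change of -0.24 (SE 0.06 by edgeR; adjusted p = 0.0331). This call was kept only without NC replicate 3, and without each other library the edgeR adjusted p was 0.0643 to 0.116, within 0.00867 to 0.116 over all alternatives. NDUFA13 overlaps an unnamed gene on the same strand (ENSG00000258674, 7.82 FPKM).

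Among the 7 mitochondrial genes of complex I, which encode membrane subunits of the proton-pumping arm, MT-ND4 passed the test. MT-ND4 (ENSG00000198886, chrM:10760-12137) measured 5903, 5612 and 6064 FPKM in NC and 5322, 5066 and 4925 FPKM in siPOLR1F. The groups were apart, with a log2 change of -0.19 (SE 0.04 by edgeR; adjusted p = 0.0220). The call was lost when NC replicate 1 or 3 or siPOLR1F replicate 2 or 3 was left out (edgeR adjusted p from 0.0555 to 0.0823, within 0.0102 to 0.149 over all alternatives). MT-ND4L, on the same mRNA, had a log2 change of -0.16 (adjusted p = 0.114 by edgeR) with no overlap between the groups. For MT-ND1, MT-ND2, MT-ND3, MT-ND5 and MT-ND6 the log2 fold changes were -0.05, -0.09, -0.15, -0.11 and -0.13, their FPKM groups overlapped, and none passed the test. MT-ND3 spread most among its libraries, at 624, 575 and 396 FPKM in NC and 543, 513 and 373 FPKM in siPOLR1F, with replicate 3 lowest in each group.

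Complex II, the succinate dehydrogenase, also works in the citric acid cycle. Its 4 genes split, with 1 higher, 1 lower and 2 not called. SDHB (ENSG00000117118, chromosome 1, 17018722 to 17054032), the iron-sulfur subunit, measured 39.2, 37.8 and 42 FPKM in NC and 46.2, 47.2 and 51.1 FPKM in siPOLR1F. Every siPOLR1F library was above every NC library. The log2 change was 0.29 (SE 0.06 by edgeR; adjusted p = 0.0176), and without siPOLR1F replicate 3 the edgeR adjusted p was 0.0702, within 0.000645 to 0.0702 over all alternatives.

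SDHD (ENSG00000204370, chromosome 11, 112086824 to 112095794), which anchors the complex in the membrane, measured 42.6, 42.1 and 45.1 FPKM in NC and 32.2, 36.3 and 39.1 FPKM in siPOLR1F. It was lower in each siPOLR1F library, with a log2 change of -0.26 (SE 0.07 by edgeR; adjusted p = 0.0414). The call was kept only without siPOLR1F replicate 3, and without each other library the edgeR adjusted p was 0.0557 to 0.113, within 0.00686 to 0.174 over all alternatives. The flavoprotein SDHA and the second anchor SDHC had log2 fold changes of 0.04 and -0.01. The summed FPKM of the complex was 145 ± 5.05 in NC, against 147 ± 8.11 in siPOLR1F (SD, n = 3), and the groups overlapped.

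The promoters of SDHB and SDHD are shown because these partners in 1 complex moved in opposite directions. Each line gives the 250 bases before and the 30 after the gene start, from RefSeq (GRCh38.p14), 5′ to 3′ on the gene's strand. Capitals mark matches to 4 motifs searched on both strands: GCGCA, any base and GCGC for NRF1, CCGGAAG for ETS factors such as GABPA, AAGATGGC for YY1 and TCAAGGTCA for estrogen-related receptors. These factors are known regulators of nuclear OXPHOS genes.
SDHB, minus strand, chr1:17054003-17054282: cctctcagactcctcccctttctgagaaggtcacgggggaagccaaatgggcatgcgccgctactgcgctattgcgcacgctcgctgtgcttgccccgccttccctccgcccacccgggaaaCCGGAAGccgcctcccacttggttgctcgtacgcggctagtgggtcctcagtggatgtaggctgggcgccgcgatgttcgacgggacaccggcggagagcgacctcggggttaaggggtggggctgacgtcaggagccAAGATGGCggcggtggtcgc
SDHD, plus strand, chr11:112086623-112086902: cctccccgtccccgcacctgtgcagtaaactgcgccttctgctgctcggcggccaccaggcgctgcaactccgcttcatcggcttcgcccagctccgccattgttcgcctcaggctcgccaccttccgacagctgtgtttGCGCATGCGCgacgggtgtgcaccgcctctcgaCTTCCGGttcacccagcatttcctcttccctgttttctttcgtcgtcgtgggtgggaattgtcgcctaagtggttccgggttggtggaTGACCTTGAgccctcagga
SDHB held the ETS and the YY1 letters. SDHD held the NRF1 letters, which read the same on both strands here, and on the opposite strand the ETS letters and those of the estrogen-related receptors. None of the motifs overlapped another in these windows.

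Of the nuclear OXPHOS genes, 67 had a promoter in the RefSeq table, searched over 300 bases (250 before and 50 after the start). The NRF1 letters were in 16 of them (23.9%), against 13.9% of 9623 tested genes and 5.78% of all 35116 promoters. The ETS letters were in 21 (31.3%), against 23.6% and 10.3%, and the YY1 letters in 12 (17.9%), against 6.75% and 2.89%. The receptor letters were in 1, SDHD (1.49%), against 0.229% and 0.353%. Shares of OXPHOS genes and of tested genes count each gene once if any of its promoters matched. Shares of all promoters count single promoters, also those of genes not tested, so the 2 kinds of share differ in unit. The median log2 fold change was -0.13 in genes with the NRF1 letters and -0.10 in those without, -0.12 and -0.11 for ETS, and -0.01 and -0.13 for YY1. These medians are descriptions with no test, and a match of letters is not a measured binding site.

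Complex III, the cytochrome bc1 complex, had 9 nuclear genes tested, all with values below 0, a median log2 fold change of -0.17, and 1 call. UQCRQ (ENSG00000164405, chromosome 5, 132866630 to 132868847), a small accessory subunit, measured 24.0, 25.8 and 23.9 FPKM in NC and 21.3, 21.6 and 20.5 FPKM in siPOLR1F. The groups did not overlap, with a log2 change of -0.21 (SE 0.06 by edgeR; adjusted p = 0.0499). The call was lost whichever library was left out (edgeR adjusted p from 0.0672 to 0.160, within 0.0242 to 0.160 over all alternatives). UQCRHL had the largest log2 fold change of the complex, -0.21 (SE 0.20; edgeR adjusted p = 0.493), at only 1.23 FPKM in NC. It is a near-identical copy of UQCRH (110 FPKM in NC; log2 fold change -0.01), so reads may be divided between them. The mitochondrial subunit MT-CYB, which carries the haem groups and the ubiquinone sites, measured 2953, 2947 and 2853 FPKM in NC and 2755, 2447 and 2531 FPKM in siPOLR1F. Its groups were apart, but with a log2 fold change of -0.17 (SE 0.05) it had an edgeR adjusted p of 0.0555. Summed over the nuclear genes, complex III went from 320 ± 7.90 to 298 ± 8.15 FPKM (SD, n = 3) with no overlap.

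Complex IV, the cytochrome c oxidase, had no call among its 12 nuclear genes tested by edgeR, although 4 had an unadjusted p below 0.05; 11 values were below 0. COX8A, the highest of them by FPKM, measured 201, 204 and 220 FPKM in NC and 176, 194 and 183 FPKM in siPOLR1F. Its groups did not overlap. Its log2 change was -0.17 (SE 0.06 by edgeR; adjusted p = 0.0880). COX5A, the next by FPKM, had a log2 fold change of -0.09. COX6B1, with the largest change, had one of -0.22 (SE 0.08 by edgeR, adjusted p = 0.109) and overlapping groups. By counts COX4I1 stood above COX8A, at 13614 against 7003 in NC replicate 1. Summed over the nuclear genes, the complex went from 594 ± 24.8 to 546 ± 16.3 FPKM (SD, n = 3) with no overlap. The mitochondrial mRNAs MT-CO1, MT-CO2 and MT-CO3, which encode the catalytic core, had log2 fold changes of -0.14, -0.14 and -0.14. Of these, MT-CO1 alone had groups that did not overlap, at 6754, 6397 and 7328 FPKM in NC and 6253, 6049 and 6173 FPKM in siPOLR1F (edgeR adjusted p = 0.0846).

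Several complex IV subunits have tissue-specific isoforms, and 8505C cells held the ubiquitous ones. COX6A1 was at 57.5 FPKM in NC and its heart and muscle isoform COX6A2 at 0.0301. COX7A2 was at 31.8 FPKM and its muscle isoform COX7A1 at 0.0298. COX6B1 was at 47.8 FPKM and its testis isoform COX6B2 at 0.0768. NDUFA4 was at 15.5 FPKM and its hypoxia-induced relative NDUFA4L2, outside the name rule, at 0.235. COX4I1 was at 41.8 FPKM, and COX4I2 and COX8C were not analysed here. COX6A2, COX6B2 and COX7A1 lay below the filter on low values, as did 2 ATP synthase entries, the readthrough ATP5MF-PTCD1 and ATP5MGL, so 116 of the 121 genes were tested.

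Complex V, the ATP synthase, had 3 lower and no higher genes among 18 nuclear genes tested, and 15 values below 0. The calls fell in different parts of the enzyme: 1 of 5 genes of the catalytic head and central stalk, 1 of 3 of the rotating c-ring, 1 of 5 of the other membrane subunits and none of 4 of the peripheral stalk. ATP5MK (ENSG00000173915, chromosome 10, 103389041 to 103396492), a small membrane subunit, measured 27.3, 26.0 and 27.0 FPKM in NC and 21.9, 23.3 and 19.1 FPKM in siPOLR1F. The siPOLR1F libraries were all lower, with a log2 change of -0.31 (SE 0.09 by edgeR; adjusted p = 0.0415). ATP5F1E (ENSG00000124172, chromosome 20, 59025475 to 59032335), the epsilon subunit of the central stalk, measured 11.9, 12.3 and 11.9 FPKM in NC and 10.7, 10.5 and 10.1 FPKM in siPOLR1F. It was lower in each siPOLR1F library, with a log2 change of -0.20 (SE 0.06 by edgeR; adjusted p = 0.0494). Both calls were lost whichever library was left out, with edgeR adjusted p from 0.0506 to 0.125 for ATP5MK (0.0157 to 0.125 over all alternatives) and from 0.0773 to 0.166 for ATP5F1E (0.0239 to 0.166).

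The c subunit, whose ring turns as protons pass, is made from 3 genes that encode the same mature protein. ATP5MC3 (ENSG00000154518, chromosome 2, 175176258 to 175181710) measured 29.99, 33 and 31.5 FPKM in NC and 24.3, 26.9 and 28.6 FPKM in siPOLR1F. Its groups did not overlap, with a log2 change of -0.24 (SE 0.07 by edgeR; adjusted p = 0.0479). The call was kept without NC replicate 1 or siPOLR1F replicate 3, and without the others the edgeR adjusted p was 0.102 to 0.140, within 0.0128 to 0.196 over all alternatives. ATP5MC2 had a log2 change of -0.19 (adjusted p = 0.0537 by edgeR) and ATP5MC1 of -0.10. The catalytic subunit ATP5F1B, the most abundant nuclear OXPHOS mRNA, was at 252 ± 8.45 FPKM in NC and 251 ± 12.1 FPKM in siPOLR1F (SD, n = 3; log2 fold change -0.00, SE 0.05).

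The mitochondrial genes MT-ATP8 and MT-ATP6 encode membrane subunits of the same enzyme from overlapping frames. MT-ATP8 (ENSG00000228253, chrM:8366-8572) measured 6005, 6074 and 5744 FPKM in NC and 5457, 5114 and 5236 FPKM in siPOLR1F. The groups did not overlap, with a log2 change of -0.17 (SE 0.05 by edgeR; adjusted p = 0.0431). The call was lost when NC replicate 1 or 2 or siPOLR1F replicate 2 or 3 was left out (edgeR adjusted p from 0.0940 to 0.145, within 0.0259 to 0.179 over all alternatives). MT-ATP6 measured 4800, 5211 and 5023 FPKM in NC and 4654, 4086 and 4430 FPKM in siPOLR1F, with a log2 change of -0.18 (SE 0.06 by edgeR; adjusted p = 0.0567).

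**Figure D4:**
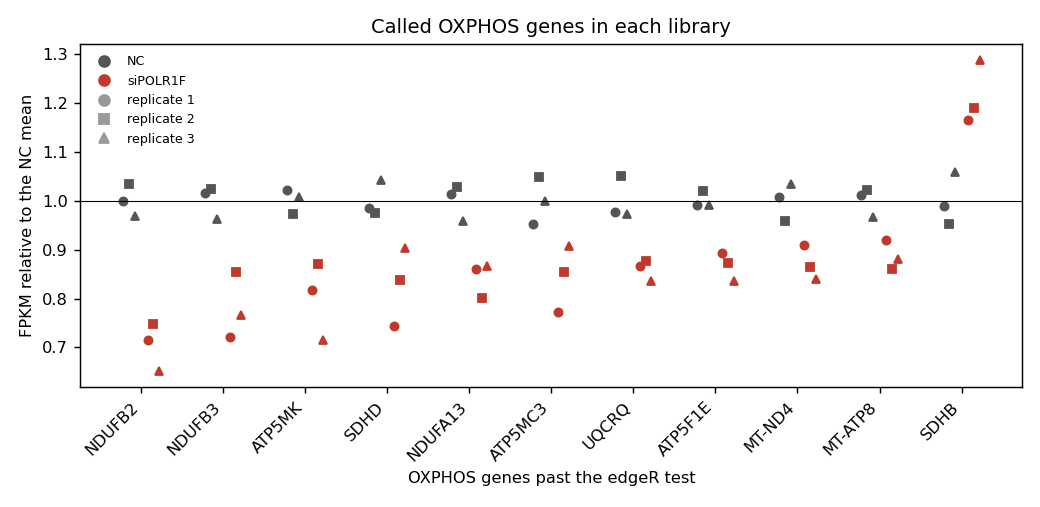
FPKM of 11 OXPHOS genes past the edgeR test in each library, divided by the gene's NC mean; grey is NC, red is siPOLR1F, and circles, squares and triangles are replicates 1, 2 and 3. In all 11 genes the groups are apart, with SDHB above the NC libraries and the other 10 below them.

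Of the 11 calls named here, that of NDUFB2 held under every alternative run that tested it and without each library, and 3 (UQCRQ, ATP5F1E and ATP5MK) were lost whichever library was left out. Without the filter on low values the 10 named genes other than NDUFB2 were not called (edgeR adjusted p from 0.0667 for SDHB to 0.196 for ATP5MC3). With the mitochondrial rows left out of the scaling, UQCRQ, ATP5F1E, ATP5MC3 and MT-ATP8 were not called (edgeR adjusted p of 0.0629, 0.0629, 0.0515 and 0.0625). With DESeq2 size factors UQCRQ and ATP5F1E were not (0.0525 and 0.0521), nor were MT-ATP8 and ATP5MC3 by limma (at most 0.0551 and 0.0578). Just beyond the threshold, with an edgeR adjusted p between 0.05 and 0.06, lay ATP5MC2, UQCR10, MT-CYB and MT-ATP6.

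The noncoding mitochondrial RNAs gave no call by edgeR, with 1 unadjusted p below 0.05 among the 22 tRNAs and none for the 2 rRNAs. The rRNA of the small mitochondrial ribosomal subunit, MT-RNR1, measured 341, 325 and 301 FPKM in NC and 349, 319 and 322 FPKM in siPOLR1F, a log2 fold change of 0.04. That of the large subunit, MT-RNR2, measured 1194, 1117 and 1054 FPKM in NC and 1315, 1182 and 1052 FPKM in siPOLR1F, a log2 fold change of 0.08. For both the groups overlapped. These rRNAs are transcribed by POLRMT and not by RNA polymerase I.

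The tRNAs had a median log2 fold change of -0.08, with 17 of 22 below 0, but their libraries varied with the replicate number. Replicate 3 was the lowest library in both groups for 16 of 22 tRNAs (72.7%), against 10.5% of all genes tested, 8 of 79 nuclear OXPHOS genes and 3 of 13 mitochondrial mRNAs, a count made after the values had been seen. MT-TW, the tRNA for tryptophan, measured 22.8, 24.2 and 5.17 FPKM in NC and 23.1, 26.1 and 5.58 FPKM in siPOLR1F, so that replicate 3 stood apart in each group and the groups overlapped. In 6 tRNAs replicate 3 was below 0.6 times the mean of replicates 1 and 2 in both groups. The tRNA genes are 59 to 75 bases long, shorter than the reads of 150 bases, and their counts need not come from the mature tRNAs. The 5 most abundant tRNA rows, MT-TY, MT-TN, MT-TC, MT-TS1 and MT-TA, lie on the minus strand. In these, and in MT-TP of the same strand, replicate 3 was not lowest in both groups. It was lowest in both for MT-TE and MT-TQ, which are also among the 8 tRNAs of the minus strand. Whether the low values of replicate 3 have to do with library preparation was not tested.

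**Figure D5:**
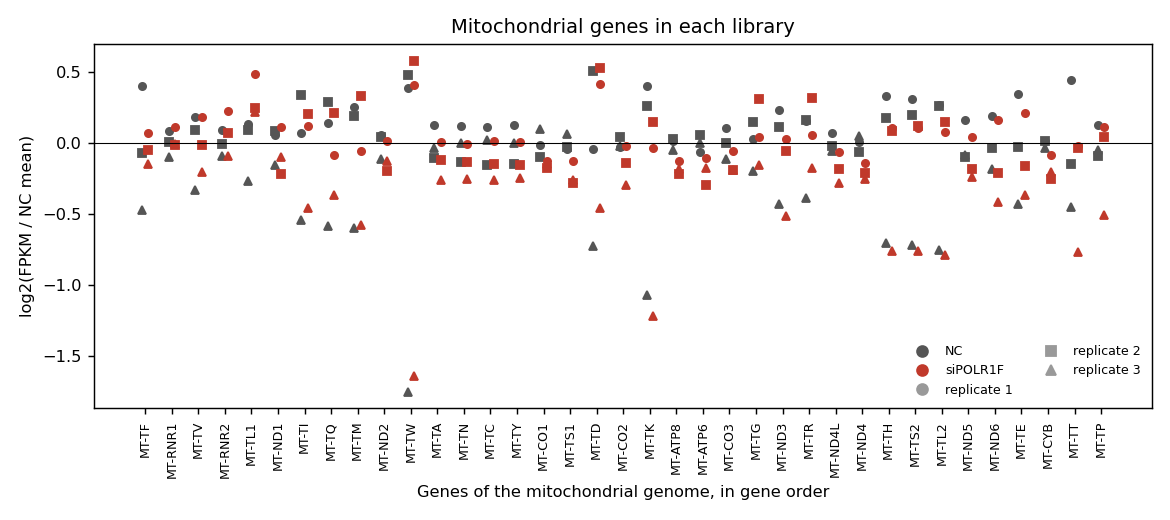
Log2 ratio of FPKM to the gene's NC mean for the 37 mitochondrial genes in the order they have on the DNA, in each library; grey is NC, red is siPOLR1F, and circles, squares and triangles are replicates 1, 2 and 3. Replicate 3 drops far below the others in both groups for several tRNAs, most for MT-TW, while the mRNAs stay close to 0.

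Copies of mitochondrial DNA in the nuclear genome can take reads that belong to the mitochondrial genes. MTATP6P1, MTND2P28 and MTCO1P12, 3 such pseudogenes on chromosome 1, measured 947, 274 and 95.3 FPKM in NC and 833, 248 and 82.8 FPKM in siPOLR1F. They held 15.9%, 11.4% and 1.35% of the counts of the pair formed with MT-ATP6, MT-ND2 and MT-CO1. Their log2 fold changes were -0.18, -0.14 and -0.19, beside -0.18, -0.09 and -0.14 for the mitochondrial genes. How reads with several matches were treated is not given in the sources used here, so the division between gene and copy is uncertain.

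Genes around the complexes are given from 6 lists, beside 10.3% higher and 6.94% lower over all genes tested. Of 4 tested subunits outside the name rule none was higher and 1 lower. This was DMAC2L, a factor of the ATP synthase, with 2.49 FPKM in NC and 1.78 FPKM in siPOLR1F (log2 fold change -0.48, SE 0.13; edgeR adjusted p = 0.0336). CYC1, the cytochrome c1 of complex III, and CYCS, cytochrome c itself, had log2 fold changes of 0.05 and 0.32 (edgeR adjusted p = 0.0504 for CYCS). Of 19 assembly factors of complex I, 1 was higher (NDUFAF4, log2 fold change 0.41; edgeR adjusted p = 0.0166) and 1 lower (NDUFAF8, -0.35; edgeR adjusted p = 0.0327). Of 39 assembly factors of complexes II to V, 6 were higher and 3 lower, with a median log2 fold change of -0.04. They included the complex III factors UQCC1, which rose by 0.38 on the log2 scale (edgeR adjusted p = 0.00377), and LYRM7, which fell by 0.44 (edgeR adjusted p = 0.0102). They also included COX15 of haem A synthesis, which rose by 0.29 (edgeR adjusted p = 0.0195), and SDHAF2, which attaches the flavin to SDHA and fell by 0.36 (edgeR adjusted p = 0.0198). The calls for UQCC1 and LYRM7 held without each library. The call for NDUFAF4 was lost when NC replicate 3 or siPOLR1F replicate 1 or 3 was dropped (edgeR adjusted p up to 0.0664), that for COX15 with NC replicate 3 or siPOLR1F replicate 2 or 3 dropped (up to 0.0810), and that for SDHAF2 with NC replicate 3 or any siPOLR1F library dropped (up to 0.0719). NDUFAF8 lost its call when NC replicate 2 or 3 or any siPOLR1F library was dropped (up to 0.103), and DMAC2L when NC replicate 1 or 2 or any siPOLR1F library was (up to 0.101).

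Of 34 genes that copy, transcribe and process mitochondrial DNA and its RNA, 3 were higher and 1 lower, where 17.2% of all genes tested were called, and the median log2 fold change was 0.01. POLRMT measured 13.9, 15.5 and 15.7 FPKM in NC and 17.9, 17.5 and 18.6 FPKM in siPOLR1F, groups that did not overlap. It rose by 0.27 on the log2 scale (SE 0.06; edgeR adjusted p = 0.0226), in the opposite direction to the mitochondrial mRNAs. PTCD1, an RNA-binding protein of mitochondria, rose by 0.43 (edgeR adjusted p = 0.0195), the mitochondrial DNA polymerase POLG rose by 0.23 (edgeR adjusted p = 0.0195), and MTERF2 of the termination factor family fell by 0.46 (edgeR adjusted p = 0.0485). Without 1 library the edgeR adjusted p reached 0.0868 for POLRMT and 0.0771 for PTCD1 (both lost without siPOLR1F replicate 1 or 3), 0.0736 for POLG (lost without NC replicate 3 or any siPOLR1F library) and 0.140 for MTERF2 (lost without any library). TFAM, which packages mitochondrial DNA and starts its transcription, had a log2 change of -0.10 (adjusted p = 0.446 by edgeR).

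Nuclear regulators of mitochondrial biogenesis had 4 higher and no lower genes among 10 tested, with a median log2 fold change of 0.23. Over all genes tested 10.3% were higher and 6.94% lower, and this short list was chosen with earlier results of these data known. PPRC1, a coactivator of the PGC-1 family, measured 7.39, 9.13 and 8.71 FPKM in NC and 12.8, 11.7 and 12.8 FPKM in siPOLR1F. All siPOLR1F libraries were above all NC libraries, and it rose by 0.57 on the log2 scale (SE 0.09; edgeR adjusted p = 0.00372). PPARGC1B, of the same family, measured 0.604, 0.822 and 0.694 FPKM in NC and 1.33, 1.17 and 1.46 FPKM in siPOLR1F. At this low level it rose by 0.91 (SE 0.14; edgeR adjusted p = 0.00373). Both calls held without each library. The nuclear receptor ESRRA rose by 0.32 (edgeR adjusted p = 0.0324) and the factor YY1 by 0.23 (edgeR adjusted p = 0.0168), but ESRRA lost its call when NC replicate 1 or 3 or siPOLR1F replicate 2 or 3 was left out (up to an edgeR adjusted p of 0.107) and YY1 without NC replicate 3 or siPOLR1F replicate 1 or 3 (up to 0.0666). NRF1 had a log2 fold change of 0.07, and PPARGC1A, at 0.176 FPKM in NC, was below the filter.

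In pyruvate entry and the citric acid cycle, which supply the chain with electrons, 2 of 23 genes were higher and 4 lower. The shares over all genes tested were 10.3% higher and 6.94% lower. The median log2 fold change of the 23 genes was -0.12. IDH3A, a subunit of the cycle enzyme isocitrate dehydrogenase, rose by 0.34 on the log2 scale (edgeR adjusted p = 0.00897). PDHX, a structural part of pyruvate dehydrogenase, fell by 0.35 (edgeR adjusted p = 0.0129), and PDK3, a kinase that inhibits that enzyme, fell by 0.47 (edgeR adjusted p = 0.00267). Without siPOLR1F replicate 2, PDHX had an edgeR adjusted p of 0.0532, whereas IDH3A and PDK3 kept their calls without each library.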

How the data were processed

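Per the labels' protocols, poly(A) RNA of 3 NC and 3 siPOLR1F libraries was sequenced as paired reads. The tools listed, per the submitters' processing notes, are fastp, HISAT2 and StringTie, on GRCh38; the sources used here give no tool versions, annotation, strand setting or multi-mapping rule. The authors deposited whole-number counts and FPKM values (counts scaled by gene length and library size) for 33539 genes. In 11428 genes the deposited FPKM followed the counts within 2.14%.

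Counts were tested with edgeR 4.0.16 (TMM, quasi-likelihood, two-sided; R 4.3.3) across 13564 genes with a mean of at least 0.5 FPKM, with Benjamini-Hochberg adjustment over all of them and a threshold of 0.05. The SE was the log2 fold change divided by the square root of F. On simulated data for this comparison with 13564 genes, 78% of genes planted with a log2 change of -1 were recovered, as were 42% of those at -0.5, 26% of those at 0.5 and 90% of those at 1, and 4.84% of 124 calls were false. Each size was planted in 50 genes, whereas 2333 genes were called in the data. Smaller changes were not planted, so their recovery is not known. Alternatives were DESeq2 1.42.0, limma 3.58.1 on log2(FPKM + 1) and log2(FPKM + 0.1), other scalings and filters, a replicate block and leaving out each library.

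Named were POLR1F, all mitochondrial mRNAs and rRNAs, called nuclear genes and the largest change of each complex (the 2 most abundant where none was called), isoform pairs, and up to 4 genes per list. Other names were chosen after their values were seen. Some genes that this rule names are counted but not reported here. Members and lists were chosen with earlier results of these data known. Of 13 biogenesis regulators 10 were tested. Intervals of a share of counts were not computed, since replicates were at hand.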

Additional observations from a re-analysis of the deposited data

How the results depend on the processing

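Lower calls outnumbered higher ones among the nuclear genes with all libraries (8 against 2). They did not without NC replicate 2 or siPOLR1F replicate 1 (1 against 2 each). Nor did they without NC replicate 3 or siPOLR1F replicate 2 (2 and 2 each), or without the filter. Without the filter on low values 663 genes were higher and 313 lower over all genes, and among OXPHOS genes 1 nuclear gene was higher, 1 nuclear gene lower and 0 mitochondrial genes lower. With a mean of at least 5 FPKM, 14 nuclear and 5 mitochondrial genes were lower, the latter including the tRNA MT-TS1. With mitochondrial rows left out of the scaling, 5 nuclear genes and 1 mitochondrial gene were lower. DESeq2 and library size alone each gave 4 lower mitochondrial genes. Leaving out 1 library gave 730 to 1326 higher and 423 to 841 lower genes over all genes, 1 to 2 higher and 1 to 5 lower nuclear genes, and 0 to 6 lower mitochondrial genes. The replicate block gave 7 lower mitochondrial genes, with 2 higher and 7 lower nuclear genes. The deviations of libraries with the same number correlated at 0.329, -0.0828 and 0.197 over 13564 genes, and not every library correlated best with its own number (replicate 2 did not), so the numbers were not taken to pair the libraries, although tRNA levels moved with them. The median log2 fold changes kept their sign, from -0.12 to -0.09 for the nuclear genes and from -0.21 to -0.11 for the mitochondrial mRNAs. The cause of these shifts was not tested.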
